A study of Mus musculus with 9 samples.

Results

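The genes described here are 41 genes of macrophages, monocytes and dendritic cells, chosen by their symbols from a table of 35315 genes measured in mouse colon. All 41 were found in the table, and they cover growth factor receptors, transcription factors, lysosomal enzymes, Fc receptors, scavenger receptors, lectins and co-stimulatory molecules. Total RNA of the colon of 8-week-old wild-type C57BL/6J mice was sequenced in 9 libraries, 3 in each of 3 groups. The Control mice drank normal water, and no injection is listed for them. The DSS mice received 2.5% dextran sulfate sodium, which damages the lining of the colon and provokes colitis, in the drinking water for 7 days, with intravenous solvent on days 2, 4 and 6 according to the design text. The GsMTx4 mice received the same DSS course with intravenous GsMTx4 at 10 mg/kg on days 2, 4 and 6. GsMTx4 is a peptide from spider venom that inhibits mechanosensitive cation channels. DSS against Control therefore differs in both the DSS and the listed solvent injections, and no group received GsMTx4 without DSS.

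Mononuclear phagocytes arise from bone marrow progenitors and, for some tissue macrophages, from embryonic precursors. The transcription factor PU.1 and signalling through the receptor CSF1R are needed for most of them, and FLT3 drives the dendritic cell branch. In the healthy gut, macrophages clear bacteria and dying cells beneath the epithelium and are replaced largely by blood monocytes, while dendritic cells carry antigen to lymph nodes. During colitis, monocytes and neutrophils enter the mucosa, and both express many of the same receptors. The libraries came from bulk colon RNA, so fewer cells of a type and less RNA per cell cannot be told apart.

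Values are FPKM, that is fragments per kilobase of transcript, scaled to the mapped fragments of the library, and the 3 values of a group are given in the order of its libraries 1, 2 and 3. Fold changes are differences of mean log2(FPKM + 1) with their standard error (SE) from limma, a linear model fitted to all 9 libraries, and an adjusted p is the Benjamini-Hochberg value over the 14360 genes with at least 1 FPKM in at least 3 libraries. A gene is said to have risen or fallen where that value was under 0.05. Nothing in the labels says whether each library is a different mouse, and the p-values therefore reflect only how far these samples spread, which may be technical. FPKM sums were 349125 to 440935 per library. The depth is not recorded, but in genes with 1 transcript the commonest small step of the values may stand for 1 fragment. If so, it corresponds to 19600000 to 21000000 fragments per library in Control, 17200000 to 21500000 in DSS and 15100000 to 17200000 in GsMTx4. The part of this difference in the low values was not tested. GsMTx4 3 had the highest sum and stood apart at -44.7 on the second principal component of the tested genes (16.5% of the variance), where the other 8 libraries lay between -26.8 and 21.5. Epcam, an epithelial surface protein, stood at 521 to 826 FPKM in every library. The 8 small intestine genes summed to 10.1 to 57.3 FPKM in Control, 15.5 to 66.98 in DSS and 29.00 to 131 in GsMTx4, mostly Fabp6, an ileal bile acid carrier, and were highest in GsMTx4 3. Of their 2 tested genes, 1 (the apolipoprotein gene Apoa1) rose in GsMTx4 against DSS, by 2.23 ± 0.14 (adjusted p = 0.000357), while Lct, Gata4, Onecut2 and Sis were near 0. The part of small intestinal signal in the phagocyte values was not tested.

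Of the 41 genes, 34 passed the filter on low values, among them Flt3 through the DSS libraries only. Timd4 and Trem2 would also have missed it without the DSS libraries. In DSS against Control 16 of these 34 rose and 0 fell (limma; at an unadjusted p under 0.05 the counts were 23 and 0), beside 6.41% of all tested genes that rose and 10.7% that fell. Among the 16 were the receptors Csf1r and Flt3, the lysozymes Lyz1 and Lyz2, 3 further myeloid signalling genes (Tyrobp, Fcer1g and Fcgr3) and the chitinase-like gene Chil3. In GsMTx4 against DSS 9 of 34 fell and 0 rose (19 and 0 at an unadjusted p under 0.05), beside 5.62% of all tested genes that fell and 6.66% that rose. The genes Csf1r, Flt3, Spi1, Cd68, Fcgr3, Cd300a, Clec7a and Ms4a4c were in both counts, which share the DSS libraries. The counted calls of Flt3, Timd4 and Trem2 are descriptions, because these genes were tested only with the help of their DSS libraries. GsMTx4 against Control gave 1 higher gene, Chil3, and 0 lower genes (5 and 0 at an unadjusted p under 0.05), beside 0.188% and 0.0487% of all tested genes.

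The median log2 fold change of the 34 genes was 0.80 in DSS against Control, beside -0.17 over all tested genes. It was -0.59 in GsMTx4 against DSS, beside 0.07, and 0.06 in GsMTx4 against Control, beside -0.08. Individual libraries did not overlap, with every DSS library above every Control library, for 24 of the 34 genes (13.5% of all tested genes), and the reverse held for 1, Mertk (33.6% of all tested genes). Every GsMTx4 library lay below every DSS library for 15 of 34 (12.8% of all tested genes). Every GsMTx4 library lay above every Control library for 8 of 34 (5.0% of all tested genes). Leaving out 1 library changed the number of genes that rose under DSS from 16 to between 7 and 17, with 8, 7 and 8 without Control 1, 2 or 3 and 9 without DSS 3. The 9 genes lower with GsMTx4 became 4 to 9, with 5 without Control 2, Control 3 or DSS 2 and 4 without DSS 3 or GsMTx4 2. Lyz2, Tyrobp, Cd300a, Clec7a, Chil3 and Ms4a4c passed in DSS against Control whichever library was left out, and Csf1r, Spi1, Cd300a and Ms4a4c did so in GsMTx4 against DSS. Other settings ended further calls. TPM rescaling ended those of Csf1r (adjusted p = 0.0666), Cd68 (0.0665), Timd4 (0.0637) and Flt3 (0.0503) in DSS against Control and of Trem2 (0.0870), Clec7a (0.0576) and Cd68 (0.0533) in GsMTx4 against DSS. With no filter, Cd68, Clec10a, Fcer1g, Fcgr3, Flt3, Lyz1 and Timd4 lost the former (adjusted p 0.0586 to 0.112) and Cd68, Clec7a, Fcgr3, Flt3 and Trem2 the latter (0.0504 to 0.112). In the fit of the compared groups only, the GsMTx4 calls of Csf1r (0.0568), Spi1 (0.0510), Cd68, Clec7a, Fcgr3, Flt3 and Trem2 were lost (0.0510 to 0.134). A pseudocount of 0.1 and quantile normalization each ended the DSS call of Timd4 (0.05996 and 0.0516) and the GsMTx4 call of Trem2 (0.05985 and 0.0677).

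Over all tested genes, 37.4% of the calls in DSS against Control were rises, and this share was 27.5% after rescaling each library to the same sum (TPM), 58.6% after median-of-ratios scaling and 48.4% after quantile normalization. The median of all genes was -0.27, -0.03 and -0.07 under these 3 scalings, against 0.79, 0.95 and 0.81 for the 34 phagocyte genes, of which 13, 17 and 16 rose and 0 fell.

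**Figure D1:**
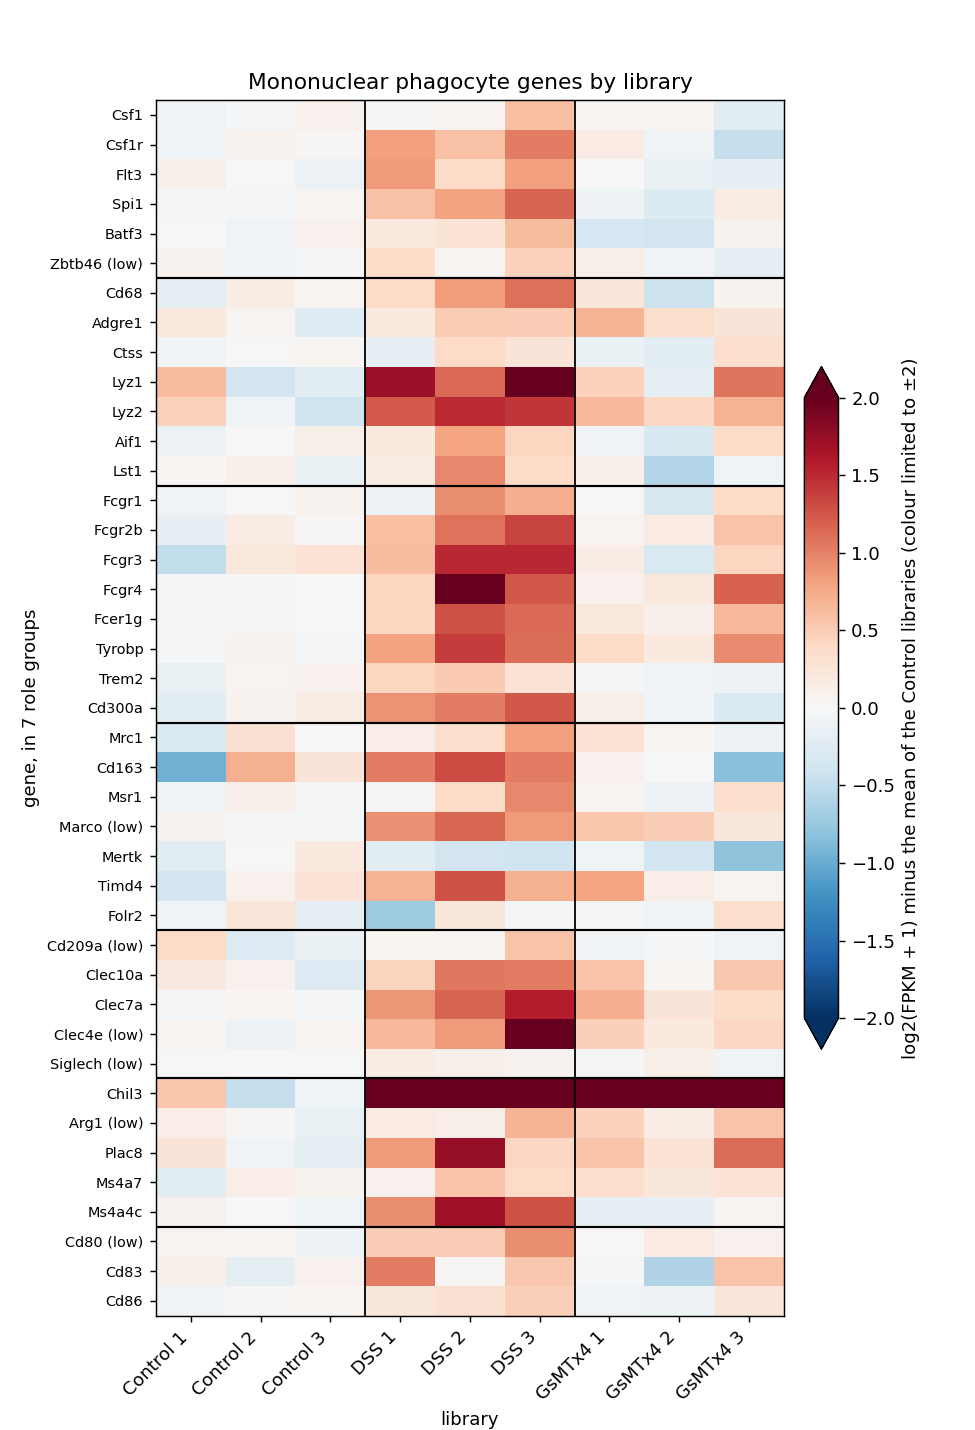
Each cell shows log2(FPKM + 1) of 1 of the 41 genes (rows, in 7 role groups divided by lines) in 1 of the 9 libraries (columns), minus the mean of the Control libraries, with colour limited to ±2 and genes that missed the filter marked low. The DSS columns are mostly red, the GsMTx4 columns are mostly paler, and Chil3 is dark red in all 6 libraries of mice given DSS.

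Of 5 tested growth factor, receptor and lineage transcription factor genes, Csf1r, Spi1 and Flt3 rose under DSS. The same 3 fell with GsMTx4 against DSS. The group medians of 0.68 and -0.79 are the values of Flt3 itself, which was tested only because of its DSS libraries. Csf1r, the receptor for the macrophage growth factors CSF1 and IL-34, stood at 12.5, 14.2 and 13.7 FPKM in Control, 24.6, 20.6 and 28.4 in DSS and 15.2, 12.8 and 9.52 in GsMTx4. Every DSS library was above every library of both other groups, while GsMTx4 and Control overlapped. The rise under DSS was 0.81 ± 0.18 (adjusted p = 0.0175, fold of mean FPKM 1.82) and the difference of GsMTx4 from DSS was -0.93 ± 0.18 (adjusted p = 0.0141). Spi1, which encodes PU.1 (chromosome 2, 91082390 to 91115756, GRCm38), stood at 6.37, 6.31 and 6.74 FPKM in Control, 10.2, 12.03 and 15.8 in DSS and 5.98, 5.21 and 7.25 in GsMTx4. Again the DSS libraries lay above all 6 others, with 0.85 ± 0.17 under DSS (adjusted p = 0.0116) and -0.93 ± 0.17 for GsMTx4 against DSS (adjusted p = 0.0116). Flt3, the dendritic cell progenitor receptor, stood at 0.964, 0.820 and 0.663 FPKM in Control, 2.27, 1.36 and 2.18 in DSS and 0.812, 0.629 and 0.611 in GsMTx4. It passed the filter through the DSS libraries only, where alone it exceeded 1 FPKM, so its 0.68 ± 0.17 (adjusted p = 0.0243) and -0.79 ± 0.17 (adjusted p = 0.0184) are descriptions.

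Csf1, the ligand of CSF1R, overlapped between the groups at 4.57 to 5.21 FPKM in Control, 4.92 to 7.85 in DSS and 4.02 to 5.03 in GsMTx4, with 0.23 ± 0.17 under DSS (adjusted p = 0.366). Batf3, a transcription factor of cross-presenting dendritic cells, had DSS libraries at 1.89 to 2.89 FPKM above Control at 1.40 to 1.65, with 0.37 ± 0.17 (adjusted p = 0.1605). Its difference of GsMTx4 from DSS was -0.59 ± 0.17 (adjusted p = 0.0571), and it passed at 0.0343 without GsMTx4 3. Zbtb46, a classical dendritic cell factor, stayed under 1 FPKM in every library and was not tested. Leaving out 1 library ended the DSS calls of Csf1r without any 1 Control library or DSS 3 (adjusted p 0.0515 to 0.0624), Spi1 without Control 2 (adjusted p 0.05102) and Flt3 without any 1 Control library, DSS 1 or DSS 3 (adjusted p 0.0522 to 0.08997), and the GsMTx4 call of Flt3 without DSS 1, DSS 3 or GsMTx4 2 (adjusted p 0.0556 to 0.0634). Exons of Csf1r share 15.1% of their bases with the opposite-strand gene Hmgxb3, and whether fragments were counted by strand is not stated.

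**Figure D2:**
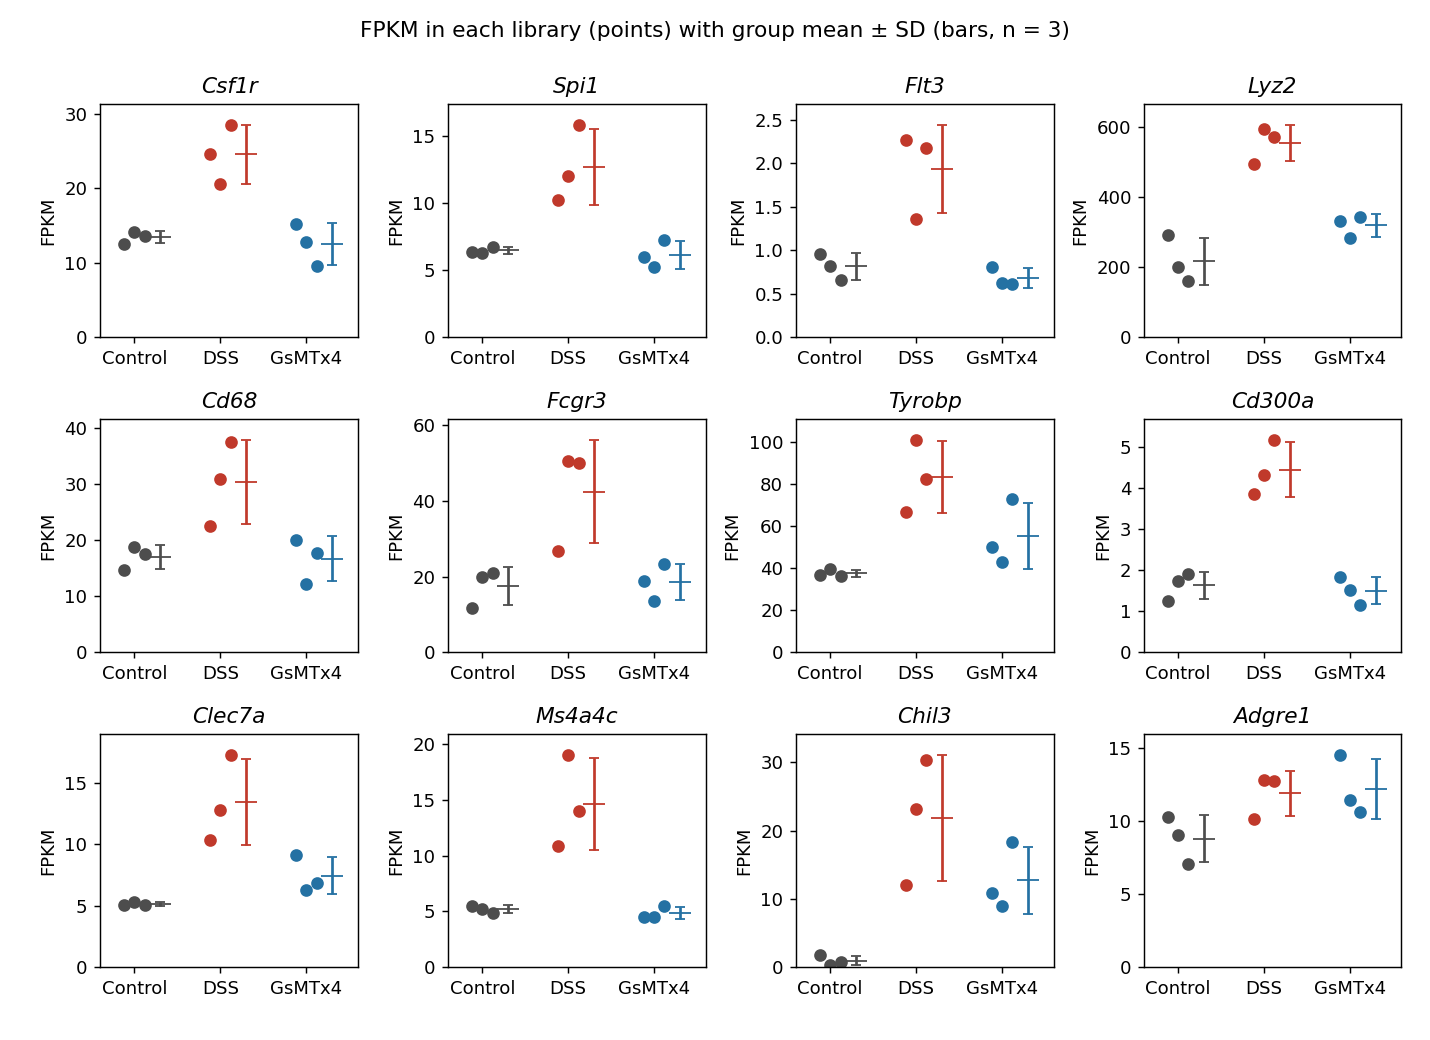
FPKM (vertical axis, from 0) of 12 genes in each of the 9 libraries, shown as points by group, with a horizontal dash for the mean and bars for the SD (n = 3). Csf1r, Spi1, Cd300a and Ms4a4c have DSS libraries above all others and GsMTx4 libraries that overlap with Control, Chil3 lies above Control in GsMTx4, and Adgre1 overlaps between DSS and GsMTx4.

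Among 7 pan-macrophage and lysosomal genes, 3 rose under DSS (Cd68, Lyz1 and Lyz2) and 1 fell with GsMTx4 against DSS (Cd68), while Adgre1, Ctss, Aif1 and Lst1 passed in neither. The group medians were 0.51 and -0.70. Lyz2, the lysozyme of macrophages and neutrophils (chromosome 10, 117277331 to 117282321), stood at 290.1, 199.8 and 160.0 FPKM in Control, 494, 593 and 569 in DSS and 332, 282 and 342 in GsMTx4. The 3 groups did not separate fully: DSS was above both others, and GsMTx4 2 lay just below Control 1. The rise was 1.39 ± 0.23 (adjusted p = 0.00546, fold of means 2.55), and GsMTx4 against DSS was -0.79 ± 0.23 (adjusted p = 0.0519), which did not pass but did without Control 1 (0.0373). Lyz1, the lysozyme of Paneth cells in the small intestine and a near copy of Lyz2, stood at 2.75, 0.888 and 1.09 FPKM in Control, 7.05, 4.36 and 10.3 in DSS and 2.37, 1.14 and 4.15 in GsMTx4. All DSS libraries were above all others, with 1.68 ± 0.39 under DSS (adjusted p = 0.0208) and -1.24 ± 0.39 for GsMTx4 against DSS (adjusted p = 0.0707). Without GsMTx4 3 the latter passed at 0.0471, and the DSS call was lost without Control 2, Control 3 or DSS 3 (adjusted p 0.0617 to 0.0804).

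The coding sequences of Lyz1 and Lyz2 are shown because their likeness bears on how fragments could be divided between them. They are the first 300 bases from the start codon, read from the GENCODE M21 transcripts of GRCm38, and capitals mark the positions at which they differ.
Lyz1: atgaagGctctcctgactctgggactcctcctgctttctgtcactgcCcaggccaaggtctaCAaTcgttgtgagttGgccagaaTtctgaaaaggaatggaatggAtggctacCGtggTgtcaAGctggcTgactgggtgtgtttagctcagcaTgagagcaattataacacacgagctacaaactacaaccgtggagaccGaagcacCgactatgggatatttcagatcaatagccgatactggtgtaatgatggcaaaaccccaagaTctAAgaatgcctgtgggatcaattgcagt
Lyz2: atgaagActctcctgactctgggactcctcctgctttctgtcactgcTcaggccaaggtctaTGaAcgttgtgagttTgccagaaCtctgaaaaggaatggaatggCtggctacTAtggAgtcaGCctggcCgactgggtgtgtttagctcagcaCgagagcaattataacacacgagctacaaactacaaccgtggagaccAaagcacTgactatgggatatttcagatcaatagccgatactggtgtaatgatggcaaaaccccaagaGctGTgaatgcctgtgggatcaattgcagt
Each coding sequence has 447 bases, of which 22 differ (95.1% identity, with 20 of the 22 in the stretch shown), and the longest run without a difference is 118 bases. Of the 373 windows of 75 bases in the Lyz1 coding sequence, 44 (11.8%) also occur in Lyz2. Lyz1 values were 0.445 to 0.948% of the Lyz2 values in the Control libraries, 0.735 to 1.80% in DSS and 0.403 to 1.21% in GsMTx4. How the program behind the FPKM values placed fragments from the shared stretches is not stated, so the small Lyz1 values are uncertain. Lyz1 is known chiefly from Paneth cells: of the 5 genes of the Paneth cell list in the table, 3 were tested (Reg3g after passing the filter through the DSS libraries only), 1 rose under DSS, and their summed FPKM was 11.1 to 20.5 in Control, 38.2 to 63.7 in DSS and 9.19 to 86.4 in GsMTx4. Their part in the Lyz1 values was not tested.

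Cd68, a lysosomal membrane protein of macrophages, stood at 14.6, 18.7 and 17.5 FPKM in Control, 22.6, 30.8 and 37.5 in DSS and 20.1, 12.2 and 17.7 in GsMTx4. DSS lay above both other groups in every library. Its rise of 0.78 ± 0.23 (adjusted p = 0.0443) and its difference of -0.82 ± 0.23 between GsMTx4 and DSS (adjusted p = 0.0453) were close to the threshold. The first was lost without any 1 Control library, DSS 2 or DSS 3 (adjusted p 0.0922 to 0.136), and the second without any 1 Control library, DSS 2, DSS 3, GsMTx4 2 or GsMTx4 3 (adjusted p 0.06302 to 0.141). Adgre1, which encodes the macrophage surface receptor F4/80, stood at 10.2, 9.01 and 7.06 FPKM in Control, 10.1, 12.8 and 12.7 in DSS and 14.5, 11.4 and 10.6 in GsMTx4. DSS and GsMTx4 overlapped, and all GsMTx4 libraries exceeded all Control libraries. Its fold changes were 0.40 ± 0.17 for DSS against Control (adjusted p = 0.133), 0.03 ± 0.17 for GsMTx4 against DSS (adjusted p = 0.928, with a negative sign under median-of-ratios scaling and quantile normalization and without DSS 1 or GsMTx4 1) and 0.43 ± 0.17 for GsMTx4 against Control (adjusted p = 0.447).

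Ctss, the antigen-processing protease cathepsin S, was the most abundant gene of its group at 431, 448 and 460.2 FPKM in Control, 398, 591 and 536 in DSS and 405, 387 and 558 in GsMTx4. The groups overlapped, with 0.17 ± 0.21 under DSS (adjusted p = 0.594) and -0.18 ± 0.21 for GsMTx4 against DSS (adjusted p = 0.6197), and both signs turned under quantile normalization. Aif1, which encodes the actin-binding protein IBA1, and Lst1, a myeloid adaptor, had DSS libraries at 12.1 to 18.8 and 13.7 to 24.8 FPKM, above Control at 9.61 to 11.4 and 10.9 to 13.2. Their differences of 0.47 ± 0.21 (adjusted p = 0.1395) and 0.51 ± 0.24 (adjusted p = 0.161) did not pass. Ctss, Lyz2 and Plac8 together made up 78.4 to 87% of the summed FPKM of the 41 genes in each library, and the other genes summed to 235 to 264 FPKM in Control, 380.1 to 575 in DSS and 249 to 359.8 in GsMTx4.

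Of 8 tested genes of Fc receptors, their adaptors and paired receptors, 5 rose under DSS and 3 fell with GsMTx4 against DSS, with medians of 1.03 and -0.68, and 7 of 8 had DSS libraries wholly above Control. Tyrobp, the adaptor DAP12, stood at 36.7, 39.5 and 36.4 FPKM in Control, 66.5, 101 and 82.4 in DSS and 49.95, 42.8 and 72.9 in GsMTx4. Control was lowest in every library and narrow, and GsMTx4 3 overlapped with DSS. The rise was 1.11 ± 0.22 (adjusted p = 0.0104), and GsMTx4 against DSS was -0.60 ± 0.22 (adjusted p = 0.0996, and 0.0314 without GsMTx4 3). Fcer1g, the common Fc receptor gamma chain, stood at 27.7, 28.5 and 28.3 FPKM in Control, 38.4, 69.4 and 62.6 in DSS and 32.9, 30.3 and 44.9 in GsMTx4. As with Tyrobp, every GsMTx4 library exceeded every Control library and 1 overlapped with DSS. Its rise was 0.95 ± 0.23 (adjusted p = 0.0238), and GsMTx4 against DSS was -0.62 ± 0.23 (adjusted p = 0.105, and 0.0266 without DSS 1). The rise was lost without any 1 Control library, DSS 2 or DSS 3 (adjusted p 0.0671 to 0.0765). Summed FPKM of the neutrophil markers other than Ly6g was 2.604 to 3.63 in Control, 84.3 to 321 in DSS and 8.83 to 52.04 in GsMTx4. Within the groups this sum was highest in DSS 3 and GsMTx4 1. With Ly6g, which was set aside after its values were seen, the sum was highest in DSS 2 (1158) and GsMTx4 3 (553). Tyrobp and Fcer1g were highest in DSS 2 and GsMTx4 3. The part of neutrophils in these genes was not tested.

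Fcgr3, the activating low-affinity IgG receptor, stood at 11.8, 19.8 and 20.95 FPKM in Control, 26.8, 50.5 and 50.1 in DSS and 18.9, 13.5 and 23.3 in GsMTx4. DSS was wholly above both groups, though DSS 1 was well below the other 2 DSS libraries. It rose by 1.21 ± 0.31 (adjusted p = 0.0286) and differed by -1.13 ± 0.31 between GsMTx4 and DSS (adjusted p = 0.0455). These calls were lost without any 1 Control library, DSS 2 or DSS 3 (adjusted p 0.0544 to 0.0922) and without Control 2, Control 3, DSS 2, DSS 3 or any 1 GsMTx4 library (adjusted p 0.05004 to 0.1497). Fcgr2b, the inhibitory IgG receptor also carried by B cells, stood at 8.22, 10.4 and 9.57 FPKM in Control, 14.8, 20.98 and 25.5 in DSS and 9.79, 10.6 and 14.5 in GsMTx4. DSS was wholly above both groups, with 1.01 ± 0.21 under DSS (adjusted p = 0.01405) and -0.75 ± 0.21 for GsMTx4 against DSS (adjusted p = 0.05101). The rise was lost without Control 1 (adjusted p 0.054). The latter difference just missed the threshold and passed at 0.0246 without DSS 1 and 0.0383 without GsMTx4 3. Fcgr2b and Fcgr3 share 9.91% and 12.9% of the 75-base windows of their coding sequences with each other, so their division is uncertain.

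Cd300a, an inhibitory receptor of myeloid cells (chromosome 11, 114890041 to 114904654), had low but well separated values of 1.25, 1.73 and 1.90 FPKM in Control, 3.85, 4.33 and 5.17 in DSS and 1.84, 1.52 and 1.16 in GsMTx4. Every DSS library lay above all 6 others. It rose by 1.05 ± 0.17 (adjusted p = 0.00461) and differed by -1.12 ± 0.17 between GsMTx4 and DSS (adjusted p = 0.00536), and both calls held under every alternative that tested it and without each library. Cd300a shares 7.47% of its windows with Cd300c2. Trem2, a lipid-sensing receptor that signals through DAP12, stood at 0.770, 1.04 and 1.08 FPKM in Control, 1.65, 1.83 and 1.40 in DSS and 0.935, 0.859 and 0.825 in GsMTx4. DSS lay above both groups, but only GsMTx4 against DSS passed, at -0.49 ± 0.14 (adjusted p = 0.0492), beside 0.42 ± 0.14 for DSS against Control (adjusted p = 0.0626). The call was lost without any 1 of the 9 libraries (adjusted p 0.06297 to 0.125). Trem2 reached 1 FPKM only in Control 2, Control 3 and the DSS libraries, so this call is a description.

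Fcgr1, the high-affinity IgG receptor, overlapped between Control (5.55 to 6.21 FPKM) and DSS (5.41 to 12.1 FPKM), with 0.52 ± 0.27 (adjusted p = 0.203, and 0.0370 without DSS 1). Fcgr4, another activating IgG receptor of monocytes, macrophages and neutrophils, ran from 14.04 to 14.6 FPKM in Control to 19.5 to 60.6 in DSS and 15.2 to 33.7 in GsMTx4. Its DSS libraries were all above Control but spread widely, and 1.23 ± 0.39 did not pass (adjusted p = 0.0601, and 0.0196 without DSS 1 and 0.0374 without GsMTx4 3). All GsMTx4 libraries were above Control as well, with 0.49 ± 0.39 (adjusted p = 0.714).

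**Figure D3:**
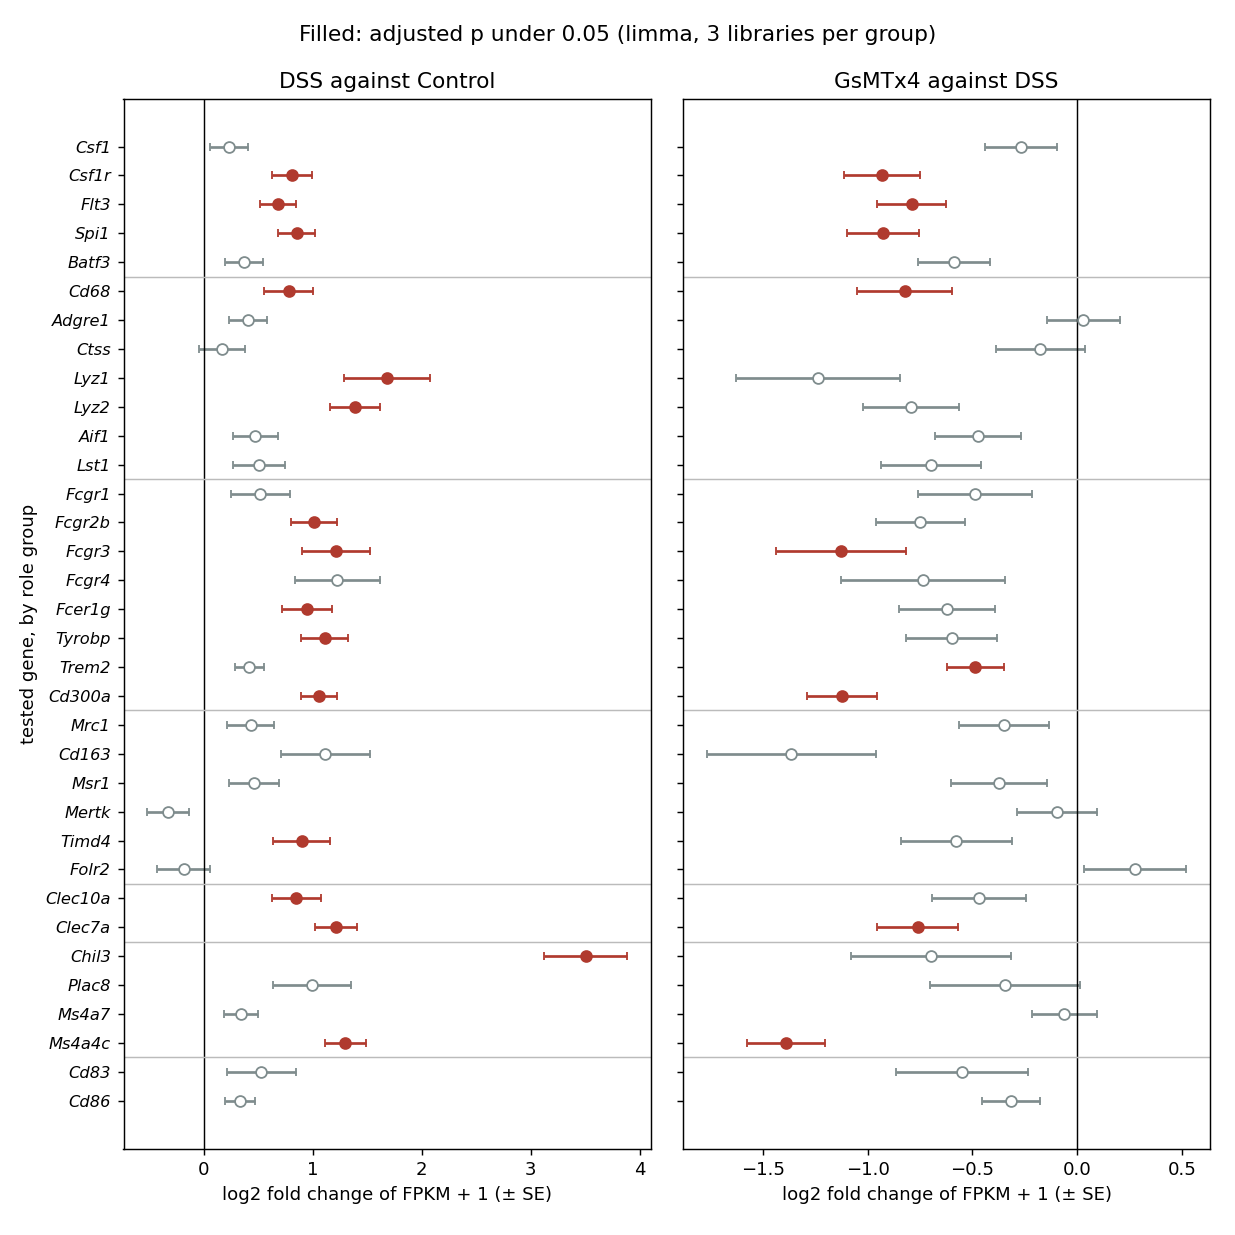
Log2 fold changes of FPKM + 1 with their SE (horizontal axes) for the 34 tested genes in role-group order, in DSS against Control (left) and GsMTx4 against DSS (right), filled where the limma adjusted p was under 0.05. On the left 32 of 34 lie above 0 and on the right 32 of 34 lie below 0; the 2 panels share the DSS libraries.

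Of 6 tested scavenger and resident-macrophage receptors, 1 rose under DSS (Timd4) and 0 fell with GsMTx4 against DSS, with medians of 0.45 and -0.36. Timd4, a phosphatidylserine receptor of long-lived resident macrophages, stood at 0.107, 0.513 and 0.723 FPKM in Control, 1.31, 2.46 and 1.34 in DSS and 1.45, 0.558 and 0.473 in GsMTx4. GsMTx4 1 lay among the DSS libraries and the other GsMTx4 libraries among Control. Timd4 reached 1 FPKM only in the DSS libraries and GsMTx4 1, so it would have missed the filter without the DSS libraries. Its fold changes are therefore descriptions. The rise of 0.90 ± 0.26 (adjusted p = 0.0468) was lost without any 1 Control library, any 1 DSS library or GsMTx4 2 (adjusted p 0.05804 to 0.144), and GsMTx4 against DSS was -0.58 ± 0.26 (adjusted p = 0.179). Cd163, the haemoglobin scavenger receptor, stood at 1.25, 6.22 and 4.26 FPKM in Control, 7.92, 9.94 and 7.95 in DSS and 3.67, 3.46 and 1.46 in GsMTx4. DSS was above both groups, but Control 1 and GsMTx4 3 stood well below their own groups. Its differences were 1.12 ± 0.40 (adjusted p = 0.0846) and -1.36 ± 0.40 (adjusted p = 0.0574), with SEs among the largest of the 34 genes. The second difference passed at 0.0203 without Control 1.

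Mertk, a receptor for the engulfment of dying cells, had a difference of the opposite sign, at 8.70, 10.2 and 11.8 FPKM in Control, 8.68, 7.65 and 7.48 in DSS and 9.57, 7.57 and 5.41 in GsMTx4. Every DSS library lay below every Control library, by a narrow margin for DSS 1, and the difference of -0.32 ± 0.19 did not pass (adjusted p = 0.252). GsMTx4 against DSS was -0.10 ± 0.19 (adjusted p = 0.767), with a positive sign without GsMTx4 3. Folr2, a folate receptor of resident macrophages, overlapped in all groups at 3.98 to 5.68, 2.39 to 5.58 and 4.39 to 6.08 FPKM, with -0.18 ± 0.24 under DSS (adjusted p = 0.6101, with a positive sign without DSS 1). Its exons share 63.1% of their bases with the antisense gene Gm10602. Mrc1, the mannose receptor, and Msr1, scavenger receptor A, overlapped between Control (5.33 to 8.56 and 2.61 to 3.13 FPKM) and DSS (7.55 to 12.7 and 2.91 to 6.50 FPKM). Their differences were 0.43 ± 0.21 (adjusted p = 0.182) and 0.46 ± 0.23 (adjusted p = 0.179). Marco, a bacterial scavenger receptor, missed the filter at 0 to 0.0772 FPKM in Control, 0.853 to 1.26 in DSS and 0.203 to 0.504 in GsMTx4, with no overlap between the groups.

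Both tested C-type lectins rose under DSS, and 1 fell with GsMTx4 against DSS. Clec7a, which encodes the beta-glucan receptor dectin-1 (chromosome 6, 129461591 to 129472779), stood at 5.03, 5.32 and 5.02 FPKM in Control, 10.3, 12.8 and 17.2 in DSS and 9.15, 6.31 and 6.87 in GsMTx4. The 3 groups did not overlap, with GsMTx4 between the others. It rose by 1.21 ± 0.19 (adjusted p = 0.00478), and differed by -0.76 ± 0.19 between GsMTx4 and DSS (adjusted p = 0.0348). GsMTx4 against Control was 0.45 ± 0.19 (adjusted p = 0.478). The second of these calls was lost without any 1 Control library, DSS 2, DSS 3, GsMTx4 2 or GsMTx4 3 (adjusted p 0.0566 to 0.119). Clec10a, a galactose-type lectin of dendritic cells and macrophages, stood at 1.22, 1.09 and 0.641 FPKM in Control, 1.69, 3.09 and 3.05 in DSS and 1.91, 1.02 and 1.86 in GsMTx4. DSS was above Control, and GsMTx4 1 and GsMTx4 3 fell within the DSS range. It rose by 0.85 ± 0.23 (adjusted p = 0.03295), and GsMTx4 against DSS was -0.47 ± 0.23 (adjusted p = 0.198). The rise was lost without any 1 Control library, DSS 2 or DSS 3 (adjusted p 0.06104 to 0.113). Clec10a shares 17.0% of its windows with its neighbour Mgl2. Clec4e, the inducible lectin Mincle, missed the filter at 0.134 to 0.275 FPKM in Control, 0.930 to 4.16 in DSS and 0.402 to 0.702 in GsMTx4, with DSS above both. The dendritic cell genes Cd209a and Siglech stayed under 1 FPKM in every library.

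The largest rise of the 34 genes under DSS was that of Chil3. This chitinase-like protein, also called Ym1, is made by alternatively activated macrophages and by neutrophils (chromosome 3, 106147554 to 106167564). It stood at 1.77, 0.373 and 0.773 FPKM in Control, 11.97, 23.1 and 30.3 in DSS and 10.9, 8.996 and 18.3 in GsMTx4. Both DSS-treated groups were wholly above Control, and they overlapped with each other. The rise under DSS was 3.50 ± 0.38 (adjusted p = 0.00117, fold of means 22.4), GsMTx4 against DSS was -0.70 ± 0.38 (adjusted p = 0.253), and GsMTx4 against Control was 2.80 ± 0.38 (adjusted p = 0.02603). The last was lost without Control 2, Control 3, DSS 2, GsMTx4 1 or GsMTx4 2 (adjusted p 0.0578 to 0.1502). It was also lost with no filter (adjusted p 0.0697) and with a filter at a mean FPKM of 5 (adjusted p 0.0628). The neutrophil marker sum was also higher in both DSS-treated groups than in Control, and its part in the Chil3 values was not tested. Chil3 shares 9.97% of its windows with Chil4 and 7.66% with Gm6522.

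Ms4a4c, a membrane protein of monocytes and macrophages (chromosome 19, 11404770 to 11427246), stood at 5.51, 5.26 and 4.86 FPKM in Control, 10.8, 19.03 and 13.99 in DSS and 4.54, 4.52 and 5.45 in GsMTx4. The DSS libraries were apart from all others, and GsMTx4 overlapped with Control. It rose by 1.30 ± 0.19 (adjusted p = 0.00311) and differed by -1.39 ± 0.19 between GsMTx4 and DSS (adjusted p = 0.00363). Both calls held under every alternative that tested it and without each library. Ms4a4c shares 8.73% of its windows with Ms4a4b. Plac8, found in monocytes, plasmacytoid dendritic cells and also colonic epithelium, was the most abundant of the 41 genes at 831, 666 and 615 FPKM in Control, 1257, 2329 and 926 in DSS and 1033, 847 and 1508 in GsMTx4. All DSS and all GsMTx4 libraries were above Control, DSS 2 stood far above the others, and no comparison passed. DSS against Control was 0.997 ± 0.358 (adjusted p = 0.0828, and 0.0474 without DSS 3), GsMTx4 against DSS was -0.35 ± 0.36 (adjusted p = 0.5498, with a positive sign without DSS 2) and GsMTx4 against Control was 0.65 ± 0.36 (adjusted p = 0.578). Ms4a7, a relative of Ms4a4c found in macrophages, had GsMTx4 libraries at 7.78 to 8.59 FPKM above Control at 5.51 to 7.24, with 0.28 ± 0.15 (adjusted p = 0.572) and 0.34 ± 0.15 for DSS against Control (adjusted p = 0.146). Arg1, the arginase of alternative activation, stayed under 1 FPKM in every library.

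Neither tested co-stimulatory gene passed. Cd83, a marker of mature dendritic cells that B cells also express, stood at 6.41, 5.09 and 6.30 FPKM in Control, 13.02, 6.02 and 9.07 in DSS and 5.75, 3.56 and 9.27 in GsMTx4. All groups overlapped, with 0.53 ± 0.32 under DSS (adjusted p = 0.258) and -0.55 ± 0.32 for GsMTx4 against DSS (adjusted p = 0.277). Cd86, a ligand of CD28, the co-stimulatory receptor of T cells, stood at 2.84, 3.04 and 3.11 FPKM in Control, 3.68, 3.94 and 4.56 in DSS and 2.81, 2.71 and 3.72 in GsMTx4. DSS lay above Control, and GsMTx4 3 reached into the DSS range. The differences were 0.34 ± 0.14 (adjusted p = 0.1196) and -0.32 ± 0.14 (adjusted p = 0.163). Cd80, the other CD28 ligand, missed the filter at 0.330 to 0.475 FPKM in Control, 0.994 to 1.71 in DSS and 0.427 to 0.584 in GsMTx4, with DSS above both.

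The libraries of a group contributed unequally. DSS 1 held the lowest DSS value for 27 of the 34 genes (26.7% of all tested genes), while DSS 2 held the highest for 18 (23.3% of all tested genes) and DSS 3 for 13 (43.9%). GsMTx4 2 held the lowest GsMTx4 value for 22 of 34 (18.6% of all tested genes), and GsMTx4 3 the highest for 19 (32.0%). Of the 16 genes that rose under DSS, the GsMTx4 mean lay between the other group means in 10 and below the Control mean in 6. These genes were picked by their high DSS values, so a GsMTx4 mean below the DSS mean was favoured in advance. The same counts over all genes that rose were not taken, so these are descriptions.

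Sequence around RefSeq starts of the genes was compared for the short motif GAGGAA, a core recognised by PU.1, the product of Spi1. These starts can differ from those of the GENCODE spans, and some windows lie inside the span of their gene. Among these are the Ms4a4c window (span 11404770 to 11427246) and the Fcgr3 windows (span 171051174 to 171064935). Windows of Batf3, Cd80, Fcgr2b and Zbtb46 are further cases. RefSeq promoters of GRCm38.p6, from 250 bases before to 50 after the start, were matched for 31 of the 41 genes. GAGGAA or its reverse complement TTCCTC was found for 17 of these 31 genes (54.8%), beside 31.3% of 27025 genes in the same table. By promoter, 19 of 36 held it, beside 28.3% of 32851. Of the 8 genes that passed in both DSS against Control and GsMTx4 against DSS, 6 had a window, and the motif was in those of Cd68, Fcgr3, Cd300a, Clec7a and Ms4a4c and not in that of Flt3. The windows of 4 genes, chosen after their values and matches were seen, are shown with the motif in capitals on either strand. Ms4a4c and Cd300a were the 2 genes whose calls in both comparisons held under every alternative that tested them, Flt3 is the gene of the 6 without a match, and Chil3 rose most under DSS.
Ms4a4c, chr19:11407411-11407710, plus strand: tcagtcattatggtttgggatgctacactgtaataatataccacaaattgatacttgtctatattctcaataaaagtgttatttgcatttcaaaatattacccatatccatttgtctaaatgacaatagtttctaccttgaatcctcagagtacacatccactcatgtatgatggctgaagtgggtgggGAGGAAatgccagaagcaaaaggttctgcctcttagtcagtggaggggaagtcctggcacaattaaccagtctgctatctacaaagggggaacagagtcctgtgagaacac
Cd300a, chr11:114889791-114890090, plus strand: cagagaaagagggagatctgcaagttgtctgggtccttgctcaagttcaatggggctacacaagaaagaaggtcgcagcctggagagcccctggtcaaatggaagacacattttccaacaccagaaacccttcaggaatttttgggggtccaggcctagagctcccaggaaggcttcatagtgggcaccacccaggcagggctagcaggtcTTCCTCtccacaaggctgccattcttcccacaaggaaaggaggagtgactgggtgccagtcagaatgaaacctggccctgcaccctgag
Flt3, chr5:147400440-147400739, minus strand: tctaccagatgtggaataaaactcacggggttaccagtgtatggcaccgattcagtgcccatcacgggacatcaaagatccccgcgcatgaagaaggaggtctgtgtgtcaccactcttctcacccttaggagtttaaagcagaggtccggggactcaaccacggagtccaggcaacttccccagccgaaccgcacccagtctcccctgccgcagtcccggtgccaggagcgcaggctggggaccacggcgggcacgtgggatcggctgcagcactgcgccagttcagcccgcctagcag
Chil3, chr3:106167515-106167814, minus strand: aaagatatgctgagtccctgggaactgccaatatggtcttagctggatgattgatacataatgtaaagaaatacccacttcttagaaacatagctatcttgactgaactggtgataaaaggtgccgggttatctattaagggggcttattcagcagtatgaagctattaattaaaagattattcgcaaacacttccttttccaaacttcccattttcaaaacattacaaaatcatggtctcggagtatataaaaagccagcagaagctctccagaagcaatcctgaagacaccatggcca
The motif occurs 1 time in each of the first 2 windows, and Flt3 and Chil3 have no match in theirs. A match is a description of the letters and not a measured binding site.

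Of 61 other mononuclear phagocyte genes that were tested, 26 rose and 2 fell under DSS, and 20 fell and 1 rose with GsMTx4 against DSS, with medians of 0.63 and -0.65. The largest differences under DSS were 4.57 ± 0.63 for Nos2, the inducible nitric oxide synthase (adjusted p = 0.00274), 2.12 ± 0.29 for the lectin Clec4d (adjusted p = 0.00274), 1.81 ± 0.27 for Ccr7, the receptor that guides dendritic cells to lymph nodes (adjusted p = 0.00366), and 1.78 ± 0.28 for Gpnmb, a lysosomal glycoprotein (adjusted p = 0.00487). Clec4d reached 1 FPKM only in the DSS libraries and GsMTx4 1, so its value is a description. Hmox1, the haem-degrading enzyme, rose by 1.69 ± 0.14 (adjusted p = 0.000492). The complement gene C1qa of resident macrophages (0.40 ± 0.19, adjusted p = 0.165) did not pass. Nor did the monocyte genes Ccr2 (0.35 ± 0.17, adjusted p = 0.174) and Ly6c2 (1.15 ± 0.39, adjusted p = 0.07002) or the macrophage chemokine receptor Cx3cr1 (0.58 ± 0.37, adjusted p = 0.289).

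Markers of other immune cells also differed between the groups. Of 10 pan-leukocyte genes, 8 rose under DSS and 6 fell with GsMTx4 against DSS, and their summed FPKM was 181 to 202 in Control, 290.0 to 383 in DSS and 162 to 244 in GsMTx4; Ptprc, the leukocyte antigen CD45, did not pass at 0.60 ± 0.20 (adjusted p = 0.0633). Of 14 neutrophil genes in the table, 7 were tested, 1 of them (Il1r2) after passing the filter through the DSS libraries only. Of the 7, 6 rose under DSS and 4 fell with GsMTx4 against DSS. S100a8 and S100a9, the calprotectin subunits of neutrophils and monocytes, rose by 5.37 ± 0.66 (adjusted p = 0.001801) and 5.59 ± 0.89 (adjusted p = 0.00486). Summed FPKM of the neutrophil list was 71.02 to 91.4 in Control, 649 to 1158 in DSS and 289.9 to 553 in GsMTx4, and without Ly6g, which was set aside after its values were seen because it made up most of the sum, it was 3.63, 2.604 and 3.36 in Control, 84.3, 123 and 321 in DSS and 52.04, 12.02 and 8.83 in GsMTx4. In all Control libraries 4 of the 14 genes were listed at 0 (Ngp, Camp, Mpo and Stfa2). With Ly6g the sum was highest in DSS 2 and GsMTx4 3, and without it in DSS 3 and GsMTx4 1. Tyrobp, Fcer1g, Fcgr3, Fcgr4, Clec7a, Clec4e, Cd300a, Lyz2 and Chil3 are also expressed by neutrophils, and the part of neutrophils in their values was not tested.

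B cell and plasma cell genes rose as well under DSS, in 4 of 9 and 4 of 6 tested genes. In GsMTx4 against DSS 0 of the 9 B cell genes passed (3 at an unadjusted p under 0.05), with all 9 below 0 and a median of -0.89, and 3 of 6 plasma cell genes fell, with a median of -0.60. B cell sums were 12.04 to 43.4 FPKM in Control, 47.3 to 203 in DSS and 22.9 to 43.01 in GsMTx4, and plasma cell sums were 374 to 518, 639 to 893 and 458 to 513. Fcgr2b and Cd83 are also expressed by B cells, and their part was not tested. T cell, natural killer cell and mast cell genes gave 0 limma calls in DSS against Control and in GsMTx4 against DSS among 10, 3 and 4 tested genes (at an unadjusted p under 0.05 there were 0, 2 and 2 in the first comparison and 2, 1 and 0 in the other). Summed epithelial markers ranged over 4996 to 6326 FPKM in Control, 5457 to 7334 in DSS and 5014 to 5939 in GsMTx4, and Epcam did not pass (-0.18 ± 0.20, adjusted p = 0.536). Of the 11 epithelial genes, 1 rose under DSS (Car1, a carbonic anhydrase of colonocytes, 1.70 ± 0.45, adjusted p = 0.0335). In GsMTx4 against DSS Car1 (-2.40 ± 0.45, adjusted p = 0.0125) and Krt20 (-0.83 ± 0.19, adjusted p = 0.0251) fell and Slc26a3 rose (0.64 ± 0.18, adjusted p = 0.0486). Of 8 fibroblast genes, 0 passed under DSS (2 at an unadjusted p under 0.05) and 3 fell with GsMTx4 against DSS, with a median of -0.91, and their sums were 133 to 151 FPKM in Control, 138 to 286 in DSS and 114 to 140.3 in GsMTx4. Of 2 tested adipocyte genes, Cidec rose under DSS and fell with GsMTx4 against DSS. The part of these cells in the phagocyte values was not tested.

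**Figure D4:**
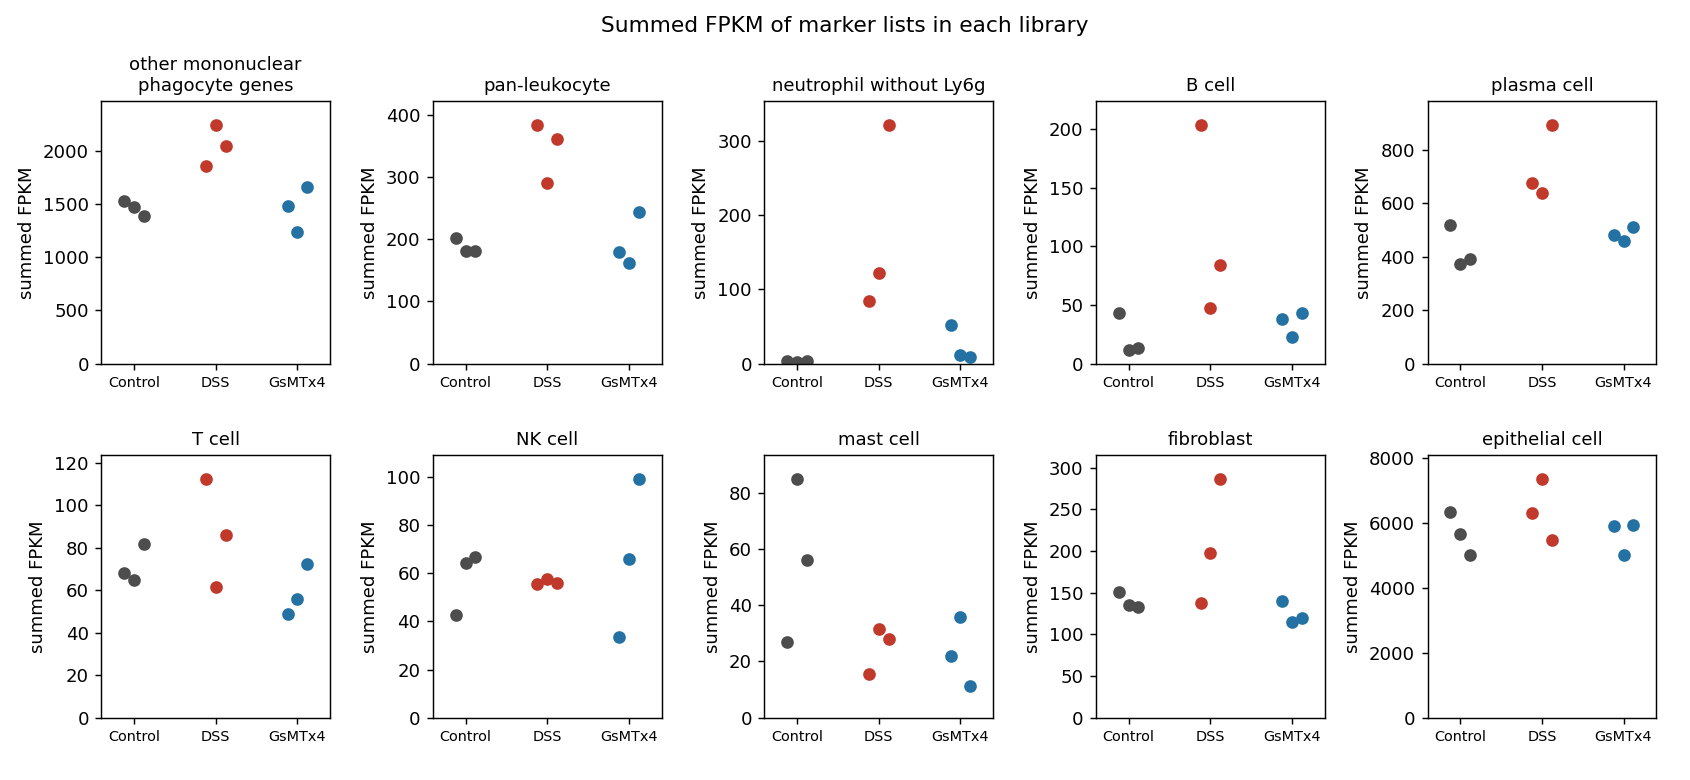
Summed FPKM (vertical axes, from 0) of 10 marker lists in each of the 9 libraries, shown as points by group. The other mononuclear phagocyte, pan-leukocyte, neutrophil (without Ly6g), B cell and plasma cell sums have all DSS libraries above all Control libraries, and the T cell, natural killer cell and epithelial sums overlap.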

How the data were processed

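Colon RNA-seq libraries were assigned to groups and numbered by their titles. The authors deposited 1 table of FPKM values for 35315 genes. The submitters' processing notes name cutadapt, FastQC and the build GRCm38. No aligner, no program behind the FPKM values and no strand setting is given in the sources used here. These values are not counts and hold no stated depth, so low values carry unknown counting error. Symbols and positions came from GENCODE M21 (35196 genes matched).

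The values were transformed to log2(FPKM + 1), which understates the change of low genes, and a gene was tested where 3 or more of the 9 libraries reached 1 FPKM. limma 3.58.1 in R 4.3.3 fitted 1 mean per group to all 9 libraries (6 residual degrees of freedom), with an empirical Bayes trend. Tests were two-sided, with Benjamini-Hochberg adjustment over the 14360 tested genes and a threshold of 0.05. The fit was first tested on simulated data, but no result of that test is given, so it says nothing of the error rate here. The 3 comparisons share libraries pairwise.

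The 41 genes, their 7 role groups and the other marker lists were chosen with earlier results of these data known. Values in every library are given for 24 genes: those that passed in any comparison, the most abundant of each role group, and the 2 with the smallest p of each role group in DSS against Control and in GsMTx4 against DSS, with Adgre1 added whatever its p. From other lists, the passing genes with the largest fold changes under DSS and a fixed set were eligible, of which 1 result is not reported here. Windows of 75 bases of coding sequence were searched in all GENCODE M21 transcripts. Alternatives were a pseudocount of 0.1, no filter, a filter at a mean FPKM of 5, TPM rescaling, median-of-ratios scaling, quantile normalization, the compared groups only, a replicate block, a minimum fold of 2, no trend, and each library left out. Figures used matplotlib 3.10.9 in Python 3.11.15.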

Additional observations from a re-analysis of the deposited data

How the results depend on the processing

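Of 1348 gene-level results under the alternatives, 1191 kept direction and side of the threshold, 118 lost the call, 29 gained it and 10 changed sign, and 0 of the 26 called fold changes changed sign. With a minimum fold of 2, 9 genes rose in DSS against Control (16 without it) and 3 fell in GsMTx4 against DSS (9 without it). The latter count was 5 with no filter and 3 in the fit of the compared groups only. The 1 gene higher in GsMTx4 against Control became 0 with no filter, with a filter at a mean FPKM of 5 and with the replicate block. Leaving out 1 library gave 7 to 17, 4 to 9 and 0 to 1 genes in these 3 comparisons. With 2 libraries left in a group, the fit uses the spread pooled over all groups. The cause of these changes was not tested.

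The sign changes were all in genes that did not pass. Adgre1 in GsMTx4 against DSS was at -0.024 with median-of-ratios scaling, -0.0042 with quantile normalization and -0.073 without DSS 1, over a range of -0.093 to 0.11 with 1 library left out. With quantile normalization Ctss was at -0.077 in DSS against Control and 0.011 in GsMTx4 against DSS. With 1 library left out, Folr2 in DSS against Control ranged from -0.38 to 0.093. In GsMTx4 against DSS the same range was -0.27 to 0.093 for Mertk, -0.19 to 0.049 for Ms4a7 and -0.64 to 0.023 for Plac8.

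Same-numbered libraries did not deviate together from their group means: the correlations were 0.07, -0.07 and 0.07 for DSS and Control, 0.10, -0.23 and -0.12 for GsMTx4 and DSS, and -0.09, 0.09 and -0.06 for GsMTx4 and Control. The replicate block gave 13 genes higher in DSS against Control and 8 lower in GsMTx4 against DSS. It ended the DSS calls of Cd68 (limma adjusted p = 0.0722), Clec10a (0.0732) and Timd4 (0.0883). In GsMTx4 against DSS it ended those of Cd68 (0.0763), Clec7a (0.0733) and Trem2 (0.102), while Fcgr2b (0.0371) and Lyz1 (0.0444) passed. Over all tested genes the block gave 713 higher and 995 lower in DSS against Control, and 553 and 525 in GsMTx4 against DSS, beside 921 and 1541, and 956 and 807. The same pairs of counts were 579 and 992, and 686 and 495, with a filter at a mean FPKM of 5, and 633 and 1056, and 590 and 483, with no filter. In the fit of the compared groups only, GsMTx4 against DSS gave 327 and 260. GsMTx4 against Control gave 27 and 7, and 3 and 2 with the filter at a mean FPKM of 5. The depth behind low FPKM values is not recorded, so their counting error could not be given.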
